A study of Mus musculus with 14 samples.

Results

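In adult mouse spinal cord, 10 receptor genes were examined, namely the opioid receptor genes Oprm1, Oprd1, Oprk1 and Oprl1, the cannabinoid receptor gene Cnr1, the tachykinin receptor gene Tacr1, the neuropeptide Y receptor genes Npy1r and Npy2r, the bombesin-family receptor gene Grpr and the somatostatin receptor gene Sstr2. They were chosen by gene symbol in the RNA-seq tables, where all 10 were found among 19215 genes, and their alternative exons were found by the gene number in the exon names, which gave 13 of 13189 cassette exons. The series measured whole spinal cord (WSC) RNA by sequencing and NOVA binding by CLIP, in which RNA crosslinked to an immunoprecipitated protein is sequenced as short tags. WSC RNA-seq came from 1 male and 1 female mouse of 12 weeks that carried Tg(SOD1)2Gur/J, a transgene of the wild-type human SOD1 gene, on a mixed B6 and SJL background, so the SOD1 transgene is shared by both libraries. The motoneuron (MN) CLIP came from 2 Chat:GFP-Nova2 lines, #6 and #17, called Chat6 and Chat17 here, with 4 samples each. These are hemizygous C57BL/6 mice of 3 months in which a bacterial artificial chromosome with the Chat promoter drives AcGFP-tagged NOVA2 (long isoform), each sample pools several cords, and NOVA was pulled down with monoclonal antibodies to GFP. The WSC CLIP came from 4 wild-type C57BL/6 mice of 3 months, 1 mouse per sample, and used a human serum that binds the endogenous NOVA1 and NOVA2. The CLIP and RNA-seq mice thus differed in strain and transgene, and the MN and WSC CLIP differed in antibody and in the form of NOVA. These differences cannot be told apart from a difference between cell types. The 4 WSC CLIP samples and the samples numbered 3 and 4 of each MN line had a long 5′ barcode, and the other MN samples did not.

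All 10 genes encode receptors of the G protein-coupled family. The opioid receptors, CB1 (the product of Cnr1), the Y1 and Y2 receptors of neuropeptide Y and SSTR2 couple mainly to inhibitory Gi and Go proteins, which close presynaptic calcium channels, open potassium channels and lower cyclic AMP. The substance P receptor NK1 (Tacr1) and the gastrin-releasing peptide receptor (Grpr) couple mainly to Gq and excite the cell. In the spinal cord these receptors are best known from the dorsal horn, where opioids, endocannabinoids and neuropeptide Y damp nociceptive input, substance P acts on projection neurons that carry NK1, and Grpr neurons carry itch. Substance P also acts on motoneurons of the ventral horn. NOVA1 and NOVA2 are neuronal RNA-binding proteins that recognise clustered tetramers (CCAC or CCAT or TCAC or TCAT) and act on splicing and on 3′ end choice.

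The RNA libraries held 72006019 (male) and 65625173 (female) reads on genes. The 8 MN CLIP samples held 65961 to 871804 unique tags and the 4 WSC samples 2213104 to 6095995, so that 1 tag was worth 1.43 to 19.6 CPM in the MN samples and 0.185 to 0.533 CPM in WSC, where CPM is the tag count scaled to a common library size. Low MN values are therefore coarse. The RNA matched spinal cord, with the 4 posterior Hox genes at means of 21.4 to 47.1 RPKM and the 5 markers of dorsal root ganglion neurons at means of no more than 0.107 RPKM. Among genes of other sources, the 6 motoneuron markers summed to 84.0 RPKM in the male and 116 in the female library, and the 3 blood markers to 96.5 and 39.3. In the CLIP comparison the 3 motoneuron markers that could be tested (Chat, Slc5a7, Chodl) were all higher in the MN lines, by 2.21 to 3.08 on the log2 scale. The 4 tested interneuron markers (Slc6a5, Slc32a1, Slc17a6, Pax2) were all lower, with log2 differences of -4.36 to -2.17, as were the 3 tested astrocyte markers (Gfap, Aqp4, Slc1a2), at -1.15 to -0.73. Of all assigned tags, 35.7% to 48.1% lay in annotated exons in the MN samples and 61.7% to 66.9% in WSC. The part of this difference in the comparisons of tags below was not tested.

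In RNA from the whole cord, Oprl1 and Cnr1 stood well above the other receptors. Oprl1, which encodes the receptor for nociceptin, had 23.7 RPKM in the male and 22.3 RPKM in the female library (23.0 ± 1.00, SD, n = 2), from 4436 and 3801 reads. Cnr1 had 13.7 RPKM in the male and 12.6 RPKM in the female library (13.1 ± 0.739). The values of the 2 libraries lay close together for both genes, and neither gene's range overlapped that of any other receptor. RPKM here counts reads per kilobase of the authors' exon length, scaled to the reads of the library, so the order of genes depends on that length. For Oprm1 the length was 5126 nt, and some of its annotated exons held 0 reads. Whether such exons are part of this length, which would lower the RPKM of Oprm1, was not tested.

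The 3 classical opioid receptors were far lower than Oprl1. Oprd1, the delta receptor gene, had 2.59 and 2.25 RPKM (2.42 ± 0.240), and Oprm1, the mu receptor gene and target of morphine, had 2.55 and 2.17 RPKM (2.36 ± 0.268). Oprk1, the kappa receptor gene and partner of the dynorphins, had 1.01 and 0.985 RPKM (0.997 ± 0.0166). With these exon lengths, Oprl1 made up 79.9% of the summed mean RPKM of the 4 opioid receptor genes, 28.7. The ranges of Oprd1 and Oprm1 overlapped, so their order could not be settled with 2 libraries, and both lay above Oprk1. Oprm1 overlaps the antisense genes Ipcef1 (mean 1.76 RPKM) and Gm10945, and shares 96 exonic bases with them, counted together. The library kit did not keep strand, so reads of these genes there cannot be told apart.

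The peptide receptors ranged from above the 3 classical opioid receptors to the bottom of the order. Tacr1 had 3.96 and 3.79 RPKM (3.88 ± 0.117), Npy1r, a receptor mostly of dendrites and cell bodies, had 3.86 and 3.50 RPKM (3.68 ± 0.255), and Sstr2 had 3.93 and 2.70 RPKM (3.31 ± 0.874). These 3 ranges overlapped in part and their order was not resolved. Npy2r, which acts on presynaptic terminals, followed with 1.55 and 1.72 RPKM (1.63 ± 0.122). Grpr was lowest, at 0.802 and 0.899 RPKM (0.850 ± 0.0681, 144 and 147 reads), and the mean of Oprl1 was 27.0 times that of Grpr. Npy2r, Oprk1 and Grpr did not overlap their neighbours in the order between the 2 libraries, although the exact 95% Poisson intervals of Oprk1 (0.888 to 1.14 in the male library) and Grpr (0.677 to 0.944) did. Intervals cover counting error alone. In a whole tissue, fewer cells of a type and less RNA per cell cannot be told apart.

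**Figure D1:**
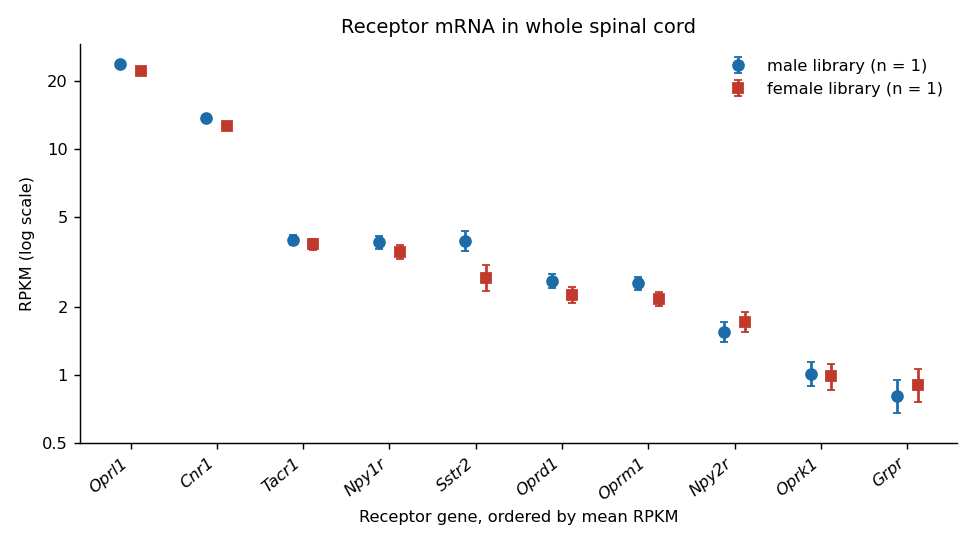
RPKM of the 10 receptor genes (log axis) in the male and the female WSC library, 1 library each, ordered by mean; bars are exact 95% Poisson intervals of the read counts. Oprl1 (23.7 and 22.3 RPKM) and Cnr1 (13.7 and 12.6) stand apart from the 8 others, which lie between 0.802 and 3.96 RPKM, and Sstr2 shows the widest gap between the libraries.

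The 2 libraries gave similar receptor levels. On the scale of log2(RPKM + 0.1), 8 of the 10 genes had a higher value in the male library and 2, Npy2r and Grpr, in the female library, while 51.9% of all tested genes had the higher value in the male library. None of the 10 passed 1.5-fold, whereas 9.43% of the 15038 genes with at least 10 reads did, 5.5% with the higher value in the male library. That share takes in genes with few reads, while the receptor with the fewest, Grpr, had 291 over both libraries. The 2 are thus not at like depth. The largest difference was that of Sstr2, 0.53 on the log2 scale (368 and 230 reads), followed by Oprm1 at 0.22 and Oprd1 at 0.19. The median over the 10 genes was 0.10, and over all tested genes 0.01. For these differences, with 1 animal per sex, there is no replicate check. Sstr2 lies inside the antisense gene Slc39a11 (mean 7.08 RPKM), with no shared annotated exon base.

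Of the 10 genes, Oprl1 and Oprm1 alone had cassette exons in the authors' table, which are internal exons that a transcript includes or skips. The 4 listed events of Oprl1 concern 3 exons on chromosome 2 (mm9, plus strand) between an exon that ends at 181450651 and the one that starts at 181453082, and overlap annotated coding sequence in at least 1 transcript. A 34-nt exon (chr2:181451207-181451240) was joined to the exon before it by 38 reads in the male and 24 in the female library and to the exon after it by 20 and 23 reads. The junction that skips all 3 exons had 116 and 108 reads, giving an inclusion rate of 20% (95% Wilson interval 14.3 to 27.2) in the male and 17.9% (12.3 to 25.3) in the female library. A 139-nt exon (chr2:181452660-181452798) was joined by 18 and 8 reads to the exon before and by 26 and 18 to the exon after, with an inclusion rate of 15.9% (10.8 to 23.0) and 10.7% (6.39 to 17.5). The third exon, of 98 nt (chr2:181452701-181452798), is the 139-nt exon with a later 3′ splice site. No read in either library joined this later site to the exon before, so its listed rate of 10.1% and 7.69% came from the junction to the exon after, which the 98-nt and 139-nt forms share. Most spliced Oprl1 reads in this region therefore skipped these exons. The remaining event was the same 34-nt exon next to an upstream exon that ends at 181450636. It had 1 and 0 reads on the upstream junction, 8 and 13 on its skipping junction, and a rate of 56.8% (35.0 to 76.2) and 46.9% (29.0 to 65.7), which rests almost wholly on the downstream junction shared with the first event. The 3 splice acceptors, each shown as 20 intron bases in lower case and the first 10 exon bases in capitals, are given to show that the 98-nt and 139-nt forms follow separate ag dinucleotides.
Oprl1 34-nt exon, chr2:181451187-181451216, plus strand: tggtctctgtttttttccagCTGGGAGGGC
Oprl1 139-nt exon, chr2:181452640-181452669, plus strand: ttttctgttttcattgctagACAACATTGT
Oprl1 98-nt exon, chr2:181452681-181452710, plus strand: atctttgatgaactttacagGCAGTGCCCT

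**Figure D2:**
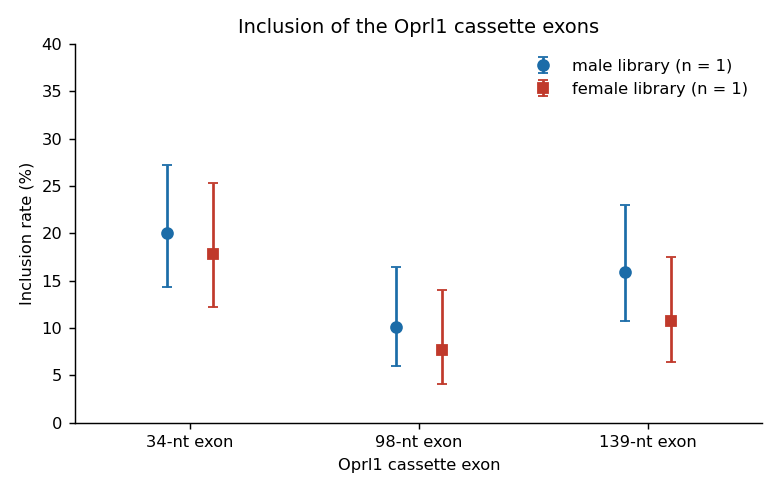
Inclusion rate (%) of the 3 Oprl1 cassette exons beside the upstream exon that ends at the later site, in the male and the female library (1 library each); bars are 95% Wilson intervals. All rates lie between 7.69% and 20%, the intervals of the 2 libraries overlap at each exon, and the rate of the 98-nt exon comes from a junction it shares with the 139-nt exon.

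Of the 9 Oprm1 events, 4 had enough junction reads to be read. The second coding exon (chr10:3517304-3517656, 353 nt, minus strand), which encodes part of the membrane-spanning core, was joined to its neighbours by 31 and 13 reads in the male and 32 and 11 in the female library, with 0 skipping reads in both. A skipping share of up to 13.6% in the male and 14.0% in the female library remains possible at this depth. At 2 annotated exons outside the coding sequence between the first and second coding exons, chr10:3551650-3551752 and chr10:3555452-3555546, there were 0 inclusion reads against 31 (male) and 32 (female) reads that skipped them, which allows inclusion of up to 9.68% and 9.38%. At the 3′ end, a 302-nt exon (chr10:3496434-3496735) was joined to the third coding exon (chr10:3516044-3516564) by 23 and 16 reads and had 103 and 76 reads on its body. No read in either library joined it to a later exon, and the junction listed as skipping it had 0 reads in both. The 5 other events had at most 1 junction read in a library, and that read, in the female library, joined the third coding exon to the exon chr10:3438480-3438666. One of them, the 89-nt exon chr10:3366837-3366925, had 14 and 11 reads on its body and 0 on any junction. Oprm1 is annotated with many such carboxy-terminal variants, and among these reads the form that ends in the exon of chr10:3496434-3496735 accounted for the listed junction reads past the third coding exon, save 1 read in the female library.

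None of the 8 receptor exons with at least 10 junction reads in each library differed between the libraries at a false discovery rate (FDR) of 0.1 (two-sided Fisher's exact test, Benjamini-Hochberg adjusted over 9396 exons), where 4.26% of all tested exons did. Their smallest unadjusted p was 0.570 (Fisher's exact test), and 0.130 when junction reads alone were counted, under which 3.3% of all tested exons were called and no receptor exon was. The test compares 2 libraries, not the sexes. The 4 Oprl1 events share reads and are not independent. The 4 Oprm1 events had 0 inclusion or 0 skipping reads in both libraries alike, so this test could not have called them.

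The CLIP comparison asks whether NOVA bound each gene more or less in MNs than in the whole cord, and a tag count reflects both the amount of the RNA and its binding, which cannot be told apart here. Oprm1 and Cnr1 carried fewer tags in the MN lines, and Tacr1 carried more. Tags per gene span were fitted with edgeR's quasi-likelihood test over 4613 genes that passed its filter on low counts, of which 56.7% differed at an FDR of 0.01 (27.4% higher and 29.3% lower in the MN lines), so a call is common in this comparison. Just 4 of the 10 receptor genes, Oprm1, Oprl1, Cnr1 and Tacr1, had enough tags to enter.

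Oprm1 had 188, 194, 163 and 90.1 CPM in the 4 Chat6 samples, 411, 213, 349.8 and 245 in the Chat17 samples, and 786.5, 799.8, 786.3 and 917 in WSC. The 8 MN samples all lay below the 4 WSC samples. The log2 difference of MN minus WSC was -2.05 (SE 0.12, adjusted p = 1.27e-15, edgeR). Cnr1 had 67.3, 14.9, 36.3 and 45.1 CPM in Chat6, 352, 57.4, 117 and 77.5 in Chat17, and 418, 375, 373 and 386 in WSC. Its groups did not overlap either, although the first Chat17 sample, the shallowest of all and with 18 Cnr1 tags, lay just below the lowest WSC sample. The log2 difference was -2.65 (SE 0.19, adjusted p = 1.42e-11, edgeR). A fit on exonic tags alone, scaled to all exonic tags, gave -1.87 for Cnr1, whose tags lay almost wholly in exons, and -2.01 for Oprm1. The pooled share of intronic tags that lay on Oprm1 was 0.159 times that in WSC (exact 95% interval 0.142 to 0.179), and that of exonic tags 0.243 times (0.173 to 0.334). Most Oprm1 tags counted as intronic lay in the 12 kb past its terminal exon (277 in the MN lines and 9650 in WSC). Whether that stretch is intron or 3′ UTR cannot be told from the tags, so the intronic ratio depends on this label.

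Of the 4 receptor genes tested, Tacr1 was the one called higher in the MN lines. It had 67.3, 104, 75.6 and 50.7 CPM in Chat6, 137, 115, 87.5 and 66.0 in Chat17, and 37.9, 39.4, 46.7 and 45.3 in WSC. All 8 MN samples were above the 4 WSC samples, with a log2 difference of 0.82 (SE 0.18, adjusted p = 0.000221, edgeR). The excess lay in introns. Intronic Tacr1 tags numbered 90 in the MN lines and 238 in WSC. As a share of all intronic tags, Tacr1 was 2.02 times as high in the MN lines as in WSC (exact 95% interval of the pooled counts 1.57 to 2.58). Exonic tags (29 and 406), as a share of all exonic tags, had a ratio of 1.01 (0.667 to 1.47). Scaled to all intronic tags, the MN samples had 67.5 to 222 CPM of intronic Tacr1 tags and the WSC samples 29.1 to 60.4, again without overlap. With no filter on low counts, which moves the median of all genes to -0.59, the difference was 0.58 and missed the threshold (adjusted p = 0.0108, edgeR). With Chat6 alone the adjusted p was 0.0146 (edgeR).

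Oprl1 had 67.3, 29.9, 9.08 and 22.5 CPM in Chat6, 19.6, 32.8, 43.7 and 20.1 in Chat17, and 38.5, 46.4, 35.7 and 33.6 in WSC. The MN values spread on both sides of WSC. The log2 difference was -0.79 (SE 0.28) and missed the threshold (adjusted p = 0.0119, edgeR). It passed under 8 of 17 alternatives, with the same sign in all 17. Among these, leaving out Chat6 sample 1 (-1.03, adjusted p = 0.00212, edgeR) or Chat17 sample 3 (-0.84, adjusted p = 0.00936, edgeR) brought it past the threshold. The lowest adjusted p came without the 4 MN samples with fewest tags (-1.20, adjusted p = 0.000579, edgeR). With the samples of the long barcode alone the difference was -1.18 (adjusted p = 0.000644, edgeR). It missed with DESeq2 (-0.73, adjusted p = 0.0535) and with the replicate number as a block (-0.62, adjusted p = 0.0965, edgeR). It also missed in edgeR's exact test with tagwise dispersion (-0.73, adjusted p = 0.150). Its pooled ratio was 0.50 (0.289 to 0.81) for exonic tags and 0.799 (0.466 to 1.30) for intronic tags.

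**Figure D3:**
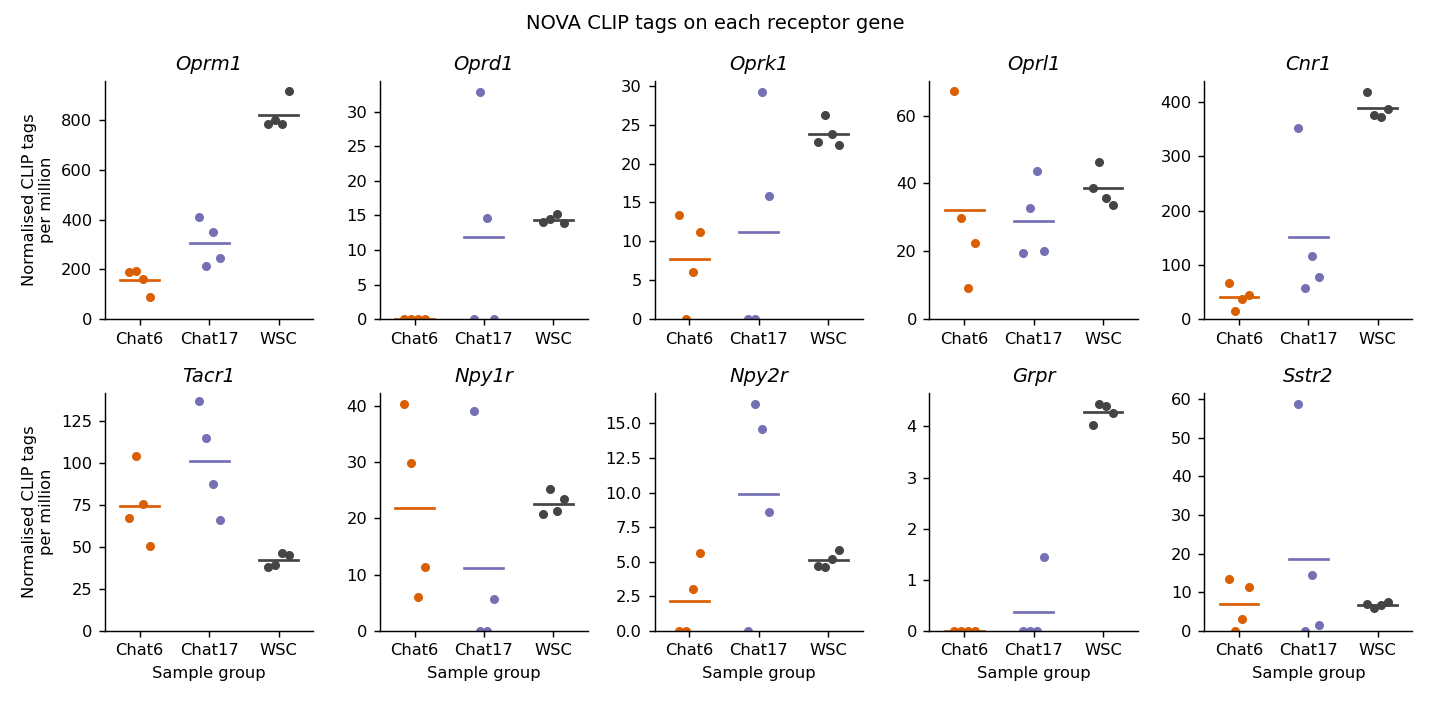
NOVA CLIP tags (CPM) on each receptor gene in the 4 Chat6, 4 Chat17 and 4 WSC samples (points), with the mean of each group (line); each panel has its own axis from 0. Oprm1 and Cnr1 lie below WSC in all 8 MN samples and Tacr1 above it, and the MN points of the low genes move in steps of single tags.

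The other 6 receptor genes had too few tags for that filter, in WSC as in the MN lines. Their tags were pooled over samples, with 43.6% of pooled MN tags from Chat17 sample 4. Oprd1 had 5 tags in the MN lines, in 2 of 8 samples, and 222 in WSC, a ratio of shares of 0.20 (exact 95% interval 0.0642 to 0.473). All 5 lay at 1 intronic position, 8.91 kb from the gene start, where WSC had 0 tags. None lay in an exon, where WSC had 201 tags, which puts the exonic ratio at no more than 0.262 at that confidence. Grpr had 1 MN tag against 66 in WSC, a ratio of 0.134 (0.00335 to 0.775). Oprk1 had 18 against 371 (0.43, 0.252 to 0.689), with an exonic ratio of 0.312 (0.113 to 0.687) and an intronic ratio of 0.647 (0.324 to 1.18). Npy1r had 15 against 348 (0.382, 0.212 to 0.639), with an exonic ratio of 0.471 (0.233 to 0.854). Npy2r had 11 against 76 (1.28, 0.615 to 2.43) and Sstr2 9 against 100 (0.798, 0.355 to 1.58), and for both the interval spans equal shares. With Chat6 alone the Npy2r ratio was 0.57. All 11 MN tags of Npy2r lay in its 3′ UTR, and relative to all exonic tags its exonic ratio was 2.19 (1.05 to 4.16). Intervals cover counting error and not the spread between mice, which was not tested for these 6 genes here.

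A fit that took in all 10 receptor genes (10347 genes with at least 50 tags, chosen after seeing the data) called 36.8% of genes, 16% as higher and 20.8% as lower in the MN lines. In it Oprk1 was lower, at -1.23 (SE 0.37, adjusted p = 0.00291, edgeR) and so was Npy1r, at -1.27 (SE 0.38, adjusted p = 0.00262, edgeR). The Oprk1 call was missed with Chat6 alone (adjusted p = 0.0107, edgeR), with Chat17 alone (-0.79, adjusted p = 0.115, edgeR) and with the samples of the long barcode alone (adjusted p = 0.0122, edgeR), so it held in 3 of 6 fits. Oprd1 passed the threshold (adjusted p = 4.50e-05) and Grpr did not (adjusted p = 0.0113, edgeR). Chat6 held no tag of either gene, so the fitted fold changes of both depend on the prior count and are not given. Oprl1, which missed the threshold in the main fit, passed it here, at -0.80 (SE 0.27, adjusted p = 0.00868, edgeR). Npy2r (0.11, SE 0.63) and Sstr2 (-0.20, SE 0.52) differed by less than their error. Npy1r passed with Chat17 alone (-1.80, adjusted p = 0.00398, edgeR) and not with Chat6 alone (-0.71, adjusted p = 0.222, edgeR), and the difference between the 2 lines themselves was not called (adjusted p = 0.983, edgeR). Oprd1 did not pass with Chat17 alone (adjusted p = 0.0709, edgeR), the line that held all its MN tags.

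**Figure D4:**
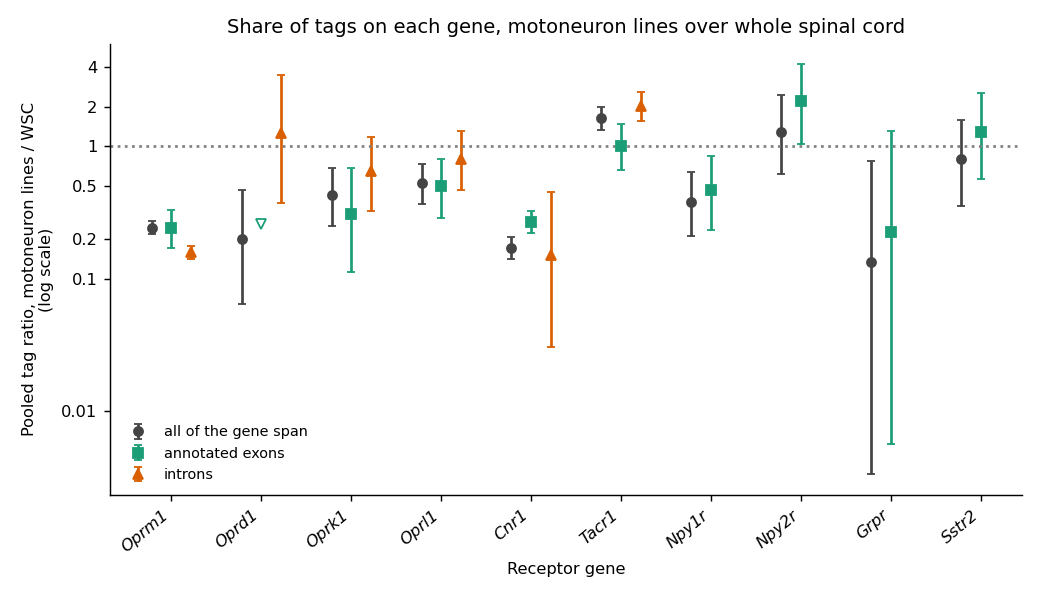
Pooled share of tags on each receptor gene in the MN lines over that in WSC (log axis), for the gene span, annotated exons and introns, each relative to all tags of that kind, with exact 95% intervals; groups with under 20 WSC tags are left out and the open triangle is the upper limit for Oprd1 exons (0 MN tags). Oprm1 (0.244) and Cnr1 (0.171) lie well below 1 for the gene span, and Tacr1 lies above 1 for introns (2.02) and at 1.01 for exons.

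The 2 MN lines were also compared with each other. No gene of 4613 (0%) was called between Chat6 and Chat17 at an FDR of 0.01 with edgeR, and DESeq2 called 1. Unadjusted, 228 of the 4613 had p under 0.05 (edgeR), about as many as this threshold gives where nothing differs. Oprm1 had a difference of Chat6 minus Chat17 of -0.84 (SE 0.22, adjusted p = 0.447, edgeR) and Cnr1 of -1.26 (SE 0.44, adjusted p = 0.846, edgeR), with unadjusted p of 0.000679 and 0.00797. The Oprm1 values of the lines did not overlap, with 194 CPM as the highest in Chat6 and 213 CPM as the lowest in Chat17. Each line against WSC gave the same sign, with Oprm1 at -2.48 in Chat6 and -1.63 in Chat17 and Cnr1 at -3.29 and -1.999.

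Tags on the receptor genes were not spread evenly. On Oprm1 (chr10:3308332-3588035, 279.7 kb), 81.6% of the 12319 WSC tags were in annotated introns, yet 78.3% of the sense tags (77.0% to 79.95% across the 4 samples) lay in the 12 kb that follow the annotated end of the exon of chr10:3495928-3496735, the terminal exon described above in its longest form. In the MN lines this stretch held 277 tags, 81.5% of the sense tags (76.9% to 92.9% across the 8 samples). A further 7.68% (WSC) and 5.59% (MN) lay in that exon itself. The exon and the 12 kb past it thus took most tags in both groups, and whether those 12 kb were intron or an unannotated extension of the 3′ UTR cannot be told apart from the tags. The 5 highest WSC maxima of Oprm1 all lay there, 3703 to 7268 bases from the nearest annotated exon. The highest, at 98.9 kb from the gene start, had a depth of 642 tags in WSC and held 6 MN tags within 25 bases. The second had 582 tags and held 28 MN tags from all 8 samples, and it was also the highest position in the MN lines. Another maximum, with 429 tags in WSC and 24 in 7 MN samples, held 7 overlapping tetramers in 30 bases. Windows of 30 bases around these maxima, on the transcribed strand of mm9, are shown because NOVA recognises the tetramers named above, which are in capitals.
Oprm1 first maximum, chr10:3489113-3489142, minus strand: acaTCATagaatgttggagattcTCACaga
Oprm1 second maximum, chr10:3488955-3488984, minus strand: tatatacagtatcaaaactTCATgactgat
Oprm1 maximum with a depth of 429, chr10:3488646-3488675, minus strand: TCATCATCATCACaaCCACCACCACatgaa

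On Cnr1 (chr4:34011568-34035806, plus strand) the tags formed a compact group in the last exon. The 3′ UTR held 87.4% of WSC tags (86.6% to 87.9% across samples) and 93.8% of the 113 MN tags, and the coding exon 10.6% and 2.65%. The highest maximum, 23.1 kb from the gene start, had a depth of 969 tags, the highest of any of the 10 genes, and the 51 bases around it held 16.0% of WSC and 13.3% of MN tags. The second, with a depth of 540, held 9.07% and 10.6%. The third, with a depth of 454 in WSC and 476 tags within 25 bases, held 0 MN tags, a count that allows up to 3. Both first windows hold 1 tetramer.
Cnr1 first maximum, chr4:34034687-34034716, plus strand: ccaattcccaaactgcttgactTCATccaa
Cnr1 second maximum, chr4:34035045-34035074, plus strand: attagattccTCATactcttgactgtatat

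Tacr1 (chr6:82352328-82510097, plus strand, 157.8 kb) had its tags placed differently in the 2 groups. The last 8 kb, with the last exons and the 3′ UTR, held 59.5% of WSC and 20.2% of MN tags, and the first 80 kb held 30.7% and 68.1%. Intronic tags were 37.0% of WSC tags (23.9% to 45.9% across samples) and 75.6% of MN tags. A shift away from exons was not particular to Tacr1. Over all assigned tags, 35.7% to 48.1% were exonic in the MN samples and 61.7% to 66.9% in WSC. Intronic tags were 20.9% of WSC and 52.8% of MN tags on Oprl1, 81.6% and 88.5% on Oprm1, and 1.81% and 2.65% on Cnr1. The highest position was the same in both groups to within 4 bases, in the 3′ UTR, with 78 WSC tags and 6 MN tags within 25 bases, and it carries TCAT at 2 places.
Tacr1 first maximum, chr6:82507256-82507285, plus strand: aTCATttatTCATggaagtctttgatttgg

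On Oprl1 (chr2:181449721-181455690) the maxima lay in the 3′ UTR (depth 88), in coding exons (83 and 58) and in the intron before the 139-nt cassette exon. This intronic maximum, 341 bases before the 139-nt exon and 382 before the 98-nt form, had a depth of 41 in WSC, holds 4 tetramers and was the highest position of Oprl1 in the MN lines, with 8 MN tags from 5 samples (19.5% of the sense tags in the gene and the 10 kb past it) against 5.70% of WSC tags. The stretch between the exons that flank the cassette exons held 129 WSC and 19 MN tags in all. The MN share rests on 8 tags.
Oprl1 intronic maximum, chr2:181452304-181452333, plus strand: TCATCACtatagTCACccttccctaCCACt
Oprl1 second maximum, coding, chr2:181453596-181453625, plus strand: tcctTCATCATcccggttctgaTCATctct

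The other genes were read in WSC alone. Oprd1 (chr4:131666641-131700401, minus strand) had 45.0% of its tags in coding exons and 45.5% in the 3′ UTR, with its maximum (depth 66) in coding sequence. Oprk1 (chr1:5578574-5596212) had 52.8% in the 3′ UTR and 26.7% in introns, and its maximum (42) lay in an intron, 2800 bases from an exon. Npy1r (chr8:69221321-69230697) had 47.4% in coding exons and 47.1% in the 3′ UTR, with maxima of 56 in coding sequence and 59 in the 3′ UTR. Npy2r (chr3:82342305-82352008, minus strand) had 72.4% in the 3′ UTR, Grpr (chrX:159951836-159987609, minus strand) 60.6% and Sstr2 (chr11:113480656-113487319) 79.0% in coding exons, all from few tags. The windows at the highest position of Oprd1 and Oprk1 and at the coding maximum of Npy1r are shown to give the letters under these tags.
Oprd1 first maximum, coding, chr4:131673170-131673199, minus strand: acccTCACCATgatgagcgtggaccgctac
Oprk1 first maximum, intronic, chr1:5582171-5582200, plus strand: acattttcaaaTCATtcaactgaaaagtca
Npy1r second maximum, coding, chr8:69228835-69228864, plus strand: gctgtttctgctctgTCACcTCACcgCCAT

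At least 1 tetramer, read on the transcribed strand and with overlapping matches counted, was present at the highest WSC position, in the gene or the 10 kb past it, of 9 of the 10 genes and in 25 of all 29 maxima of the 10 genes. The exception among the highest positions was the 3′ UTR maximum of Oprl1. Over 9802 protein-coding genes with a WSC depth of at least 10, 89.9% of the windows at the highest position held a tetramer, and of 19349 adjoining windows of 30 bases in the 10 gene spans 38.5% did. The share of receptor maxima with a tetramer was thus near that of all genes. A match is a description of the letters and not evidence of a site.

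**Figure D5:**
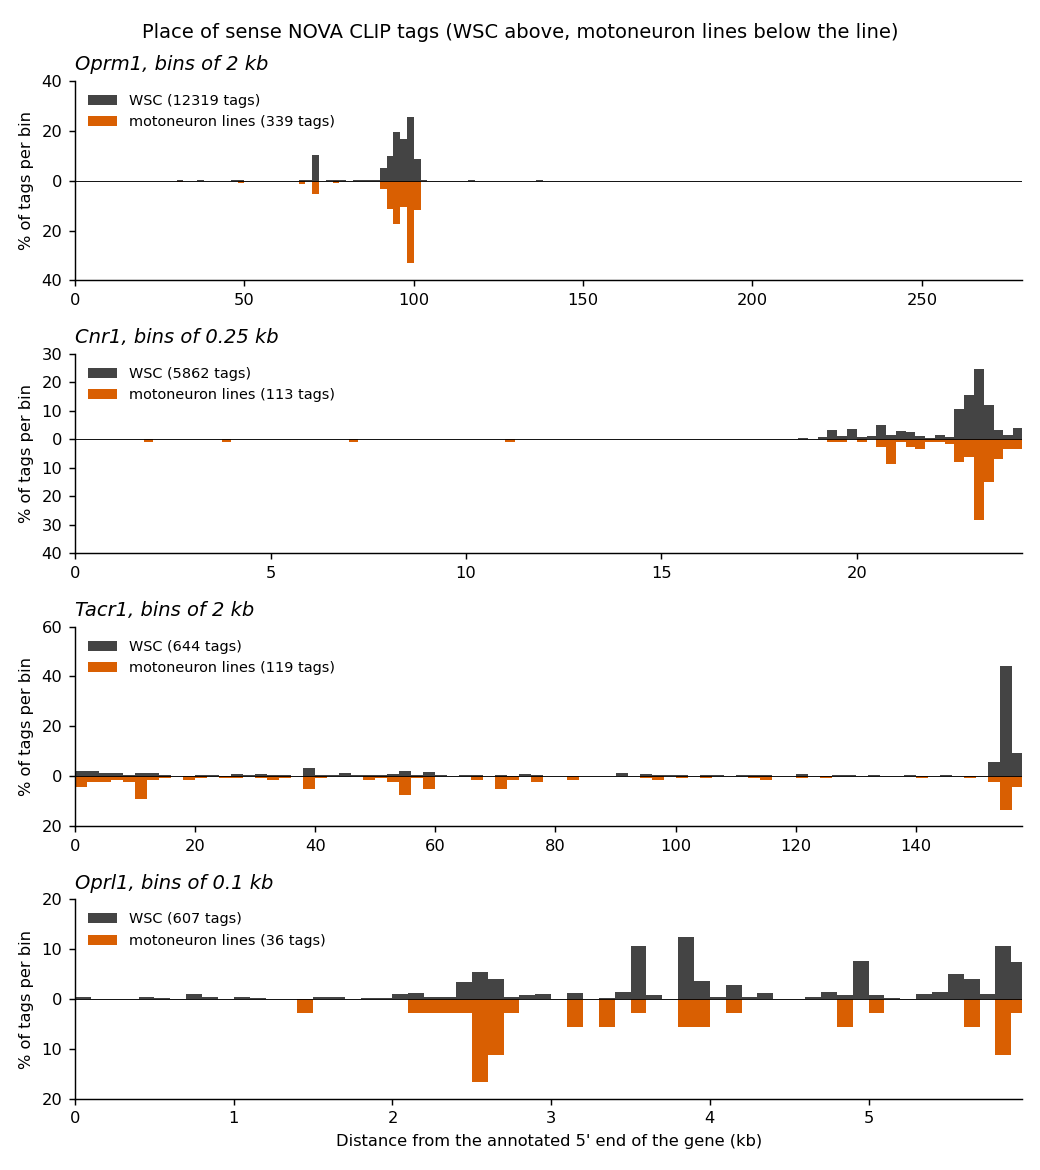
Share of sense NOVA CLIP tags (%) along Oprm1, Cnr1, Tacr1 and Oprl1 by distance from the annotated 5′ end (kb), WSC above and the MN lines below the line. In both groups most Oprm1 tags gather in the 12 kb past exon 4 (78.3% in WSC and 81.5% in the MN lines) and most Cnr1 tags near the 3′ end, whereas in Tacr1 the MN tags spread over the first 80 kb (68.1%, against 30.7% in WSC).

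Set against their RNA, the receptor genes differed in how many NOVA tags they drew. Over 12126 genes with at least 100 reads, the median was 0.0473 WSC tags per RNA-seq read. Oprm1 had 7.38 tags per read, at the 99.9th percentile of those genes, and with exonic tags alone it had 1.36, also at the 99.9th. Oprk1 had 0.77 (97.3rd percentile) and Cnr1 0.558 (96.1st). Oprl1, the receptor with the most RNA, had 0.0737 tags per read (61.4th percentile), and Npy2r 0.101 (70.4th). The 5 others lay between the 82.1st and 88.5th percentiles. Oprl1 and Oprm1 were thus ordered oppositely by RNA and by tags, with 8237 reads and 607 tags for Oprl1 and 1669 reads and 12319 tags for Oprm1. Reads and tags came from different mice, and tags were counted over introns too. The reads came from all cells of the cord, while NOVA is neuronal. A percentile among all genes therefore does not separate expression in neurons from binding. With exonic tags alone Oprl1 stood at the 70.2nd percentile.

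Of 55 genes of the ligands, enzymes, related receptors and shared signalling proteins of these systems, 23 entered the CLIP comparison, of which 4 were called higher and 9 lower in the MN lines, where 27.4% and 29.3% of all tested genes were called, so that the count of calls says nothing particular of these genes. They had a median difference of -0.25 against -0.02 over all tested genes. Penk, the source of the enkephalins, was at 142.6 and 101 RPKM in the male and female library and was lower in the MN lines, at -2.40 (SE 0.32, adjusted p = 8.50e-08, edgeR). Tac1, which encodes substance P, was at 20.4 and 16.5 RPKM, Npy at 28.7 and 20.8, Grp at 11.8 and 5.92, Sst at 157 and 98.4, and Dagla, which makes the endocannabinoid 2-arachidonoylglycerol, at 8.66 and 8.04. These 5 were not tested in the CLIP comparison, where Tac1 had 4 MN and 450 WSC tags and Grp 0 and 34. The opioid ligand list had 1 gene tested, the cannabinoid list 4 (1 higher, 2 lower), the tachykinin list 1 (lower), and the other peptide lists none. Of the 17 tested genes of G protein signalling, 3 were called higher and 5 lower, where 56.7% of all tested genes were called. This count, too, says nothing particular of these genes. The called genes are named after their values were seen. The higher genes were Cacna1b, a presynaptic calcium channel inhibited by Gi and Go (0.98), Rgs7 (0.97) and Rgs4 (1.08), both brakes on G protein signalling. The lower genes were Adcy1 (-1.92), Arrb1 (-1.83), Kcnj6 (-1.66), Gnb1 (-1.44) and Gnao1 (-0.55). In the cannabinoid list Cnrip1, whose product binds CB1, was higher (0.91), while Napepld (-1.31) and Abhd12 (-1.16) were lower, as was Tacr3 (-1.76).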

How the data were processed

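Members and gene lists were chosen with earlier results of these data known. The authors mapped CLIP reads to mm9 with Novoalign and collapsed them to unique tags with a random barcode. The deposited CLIP files list 1 unique tag per line, with a score from the authors' software that was not used. RNA reads were trimmed and mapped to mm9 with OLego and counted without strand by the authors, who deposited read counts and RPKM per gene and junction counts per cassette exon. The labels of Chat6 sample 2 name both mm9 and mm10. Under mm9, 39.9% of its assigned tags were exonic, within the range of the other MN samples, and it was kept.

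Tags were counted here per gene span of the GENCODE annotation of NCBIM37 (mm9) by midpoint and strand, with tags in more than 1 gene dropped. They were tested with edgeR 4.0.16 (TMM, filterByExpr, robust quasi-likelihood fit, contrast of the mean of both lines minus WSC, FDR of 0.01), and DESeq2 1.42.0 was an alternative. The fits on genes with at least 50 tags and without the 4 MN samples with fewest tags were chosen after seeing the data. The fit was tested on simulated data of the MN and WSC comparison (4317 genes), where it found 34 of 35 genes lowered 4-fold and 8 of 43 lowered 2-fold. Inclusion and skipping counts were compared with Fisher's exact test (scipy 1.17.1). In simulated data it found 196 of 200 exons made to differ by 30 percentage points among 4000, with 9 false calls. The simulated exons had intermediate inclusion rates and counting error alone. The result therefore does not carry over to the receptor exons, which were mostly skipped or always included. RNA levels carry SDs over 2 libraries. The named genes were the 10 receptors, their exons and the ligand or enzyme of each system. Penk was matched through its NCBI gene number, since the tables use an older symbol. Sequences were read from NCBIM37. MN samples pool mice of 1 line, so p-values measure the spread between these samples.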

Additional observations from a re-analysis of the deposited data

Results flagged for a closer look

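Among 30 groups of 4 samples looked at (10 genes in Chat6, Chat17 and WSC), 3 held a sample far from the others, where chance alone gives about 1 in 20. Oprm1 in WSC was highest at 917 CPM, next to 799.8 CPM in the second highest sample. Npy1r in Chat17 was highest at 39.2 CPM, next to 5.74 CPM, and this rests on 2 tags in the shallowest sample. Grpr in Chat17 was highest at 1.43 CPM, where the 3 other samples were at 0, and this is 1 tag.

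Sense tags were also found in WSC in the 10 kb past the annotated ends of all 10 genes, and for 6 of them the count was above 3, the limit that a count of 0 allows. There are no control samples to compare with. Oprd1 had 222 tags there, as many as in its whole span, with a maximum of 47 tags at 3608 bases past the gene end. Grpr had 146 there against 66 in its span. Oprl1 had 77, Npy1r 22, Npy2r 11 and Oprk1 8. In the MN lines these stretches held 4, 2, 5, 0, 4 and 2 tags in the same order of genes.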

How the results depend on the processing

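The count of genes that differed between the MN lines and WSC was 2616, and leaving out each sample in turn gave 1920 to 2977. It moved by more than 1.5 times with exonic tags alone (1125 of 2352 genes, since fewer genes were tested). With no filter on low counts, 26.5% of the calls were higher in the MN lines instead of 48.3%. Between Chat6 and Chat17, 0 genes differed, with 1 in DESeq2, 1 with no filter, 1 with genes of at least 50 tags and 0 to 4 when each sample was left out; the 4 came without Chat17 replicate 4. For male and female libraries, 226 genes passed 1.5-fold with RPKM + 1 against 1418. Oprm1 and Cnr1 kept their sign and call in all 24 alternatives (-2.48 to -1.63 and -3.29 to -1.87). Tacr1 entered 23 of these, and kept its sign in all 23 and its call in 21. It did not pass the low-count filter of the fit on exonic tags alone, so its call was not tested there. The order of the 10 RNA levels kept 8 to 10 ranks when either library was left out and all 10 as TPM. No receptor exon was called under any of the 3 alternatives. The deviations of samples with the same number correlated at 0.16, 0.044, 0.109 and 0.191 between Chat6 and Chat17 and at -0.067 to 0.0553 between either line and WSC. Not every pair was over 0.1, and Chat6 sample 3 correlated best with Chat17 sample 4 (0.169), so the number was taken as a name. With the replicate number as a block, 2110 genes differed between MN lines and WSC, and 0 between the lines. The block changed none of the calls of Oprm1, Cnr1, Oprl1 and Tacr1. The depth of the MN samples limits what can be said of the 6 low genes, and the cause of each move was not tested unless given.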
